A study of Mus musculus with 42 samples.

Results

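The probes for 3 genes were examined, Gapdh, Ldha and Bnip3, in 21 mouse mammary tumours, a pair of glycolytic genes and a gene induced by low oxygen. They are 3 of 15096 genes that the platform annotation names with 1 symbol. It assigned 234 of the 22800 probes to them, which were 232 repeated control spots for Gapdh, 1 probe for Ldha and 1 probe for Bnip3. Each tumour was hybridised on 2 two-colour arrays, 42 in all, as a dye-swapped pair against a common universal mouse reference RNA. All 21 tumours descended from mammary neoplasms of FVB/N mice of the transgenic strain FVB/N-Tg(WapMyc)212Bri, in which c-Myc is driven by the promoter of Wap, which encodes a milk protein of the secretory mammary epithelium. Selection in living mice had given 4 tumour lines, which were a glandular line, a solid or comedo line that had not spread to the lungs, another that had, and a line of spindle-shaped mesenchymal cells. Each array is labelled with its tumour, but not with the line, the age of the mouse or the number of passages. The tumour was therefore the group, every tumour was set against every other, and the lines were not compared.

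Glycolysis splits glucose into pyruvate in the cytosol, and many tumours run it at a high rate even where oxygen is present. Gapdh encodes glyceraldehyde-3-phosphate dehydrogenase, which makes NADH in the middle of the pathway and whose transcript often serves as a loading control. Ldha encodes the A subunit of lactate dehydrogenase, which turns pyruvate into lactate and regenerates NAD+ when mitochondria do not. Bnip3 encodes a protein of the outer mitochondrial membrane that marks mitochondria for autophagy. Hypoxia-inducible factors, dimers of an oxygen-labile alpha subunit with Arnt, bind a short DNA core and raise transcription of Bnip3, Ldha and, in many cell types, Gapdh. Myc also binds E-box elements of glycolytic genes, Ldha among them.

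The promoters are shown because the 3 genes are textbook targets of a shared regulator, whose part in their levels was not tested. Gapdh lies at chr6:125161852-125166467, Ldha at chr7:46842274-46855627 and Bnip3 at chr7:138890836-138909506 of GRCm38.p6, per RefSeq. Each printed promoter is RefSeq's window of 250 bases before to 50 bases after a transcript start in that build, read 5′ to 3′ on the gene's strand, and capitals mark each match to ACGTG or GCGTG on either strand, the core that hypoxia-inducible factors bind. The Gapdh window is chr6:125165724-125166023 on the minus strand, the Ldha window chr7:46845554-46845853 on the plus strand, and the Bnip3 window chr7:138909457-138909756 on the minus strand.
Gapdh: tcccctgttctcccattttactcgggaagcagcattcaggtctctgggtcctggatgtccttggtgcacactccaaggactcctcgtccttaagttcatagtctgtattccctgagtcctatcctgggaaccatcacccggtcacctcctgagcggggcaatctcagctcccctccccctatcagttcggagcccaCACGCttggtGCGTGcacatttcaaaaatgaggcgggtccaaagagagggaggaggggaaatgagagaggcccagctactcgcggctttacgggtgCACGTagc
Ldha: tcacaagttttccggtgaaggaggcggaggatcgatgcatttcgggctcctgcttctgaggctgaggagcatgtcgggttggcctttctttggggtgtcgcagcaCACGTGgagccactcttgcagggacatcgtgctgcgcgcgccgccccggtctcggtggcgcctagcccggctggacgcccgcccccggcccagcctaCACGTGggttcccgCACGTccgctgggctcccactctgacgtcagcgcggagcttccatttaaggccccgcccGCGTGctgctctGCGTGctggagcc
Bnip3: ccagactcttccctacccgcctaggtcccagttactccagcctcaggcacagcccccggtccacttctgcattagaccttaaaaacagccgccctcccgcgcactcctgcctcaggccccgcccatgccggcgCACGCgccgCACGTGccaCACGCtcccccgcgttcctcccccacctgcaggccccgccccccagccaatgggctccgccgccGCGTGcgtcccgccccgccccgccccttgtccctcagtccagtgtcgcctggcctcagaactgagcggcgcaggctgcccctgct
The Ldha window held 7 matches, the Bnip3 window 5 and the Gapdh window 3, where a CACGTG counts once on each strand. At least as many matches were found in 0.301% of 32851 promoter windows of the same length for Ldha, in 1.66% for Bnip3 and in 8.93% for Gapdh, and 43.8% of windows held at least 1. A second RefSeq start of Ldha, at chr7:46846832-46847131 on the plus strand, held 2 matches, a number reached by 20.6% of windows. A match describes these letters only. The arrays measured no binding, and where the probes lie within the transcripts was not analysed here.

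The arrays held between 8600 and 21328 measured probes, with a median of 17478.5, and their number limits the precision of each tumour's value to 2 hybridisations. Values are log2 ratios, so 1 unit is a 2-fold difference. The dye swap was still in the deposited ratios, since the 2 arrays of a tumour correlated negatively over probes in 20 of 21 tumours (-0.564 to -0.0572). In tumour 656 the correlation was 0.0737, so its arrays did not match over probes after turning, and results at whose ends it stands are given without it too. Arrays were turned to a common orientation, with the sign chosen to give Myc, the transgene, a positive median over the arrays. With that basis the direction from reference to tumour is likely, not settled, and with the opposite sign every level and every order given here would turn round. Levels are given on the deposited scale after turning, and, where it is said, after subtraction of each array's median, because array medians ran from -1.42 to 1.24. The 2 arrays of a tumour share its RNA, so p-values measure the spread between hybridisations and not between mice. In bulk tissue, fewer cells of a type and less RNA per cell cannot be told apart.

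Gapdh varied less between tumours than most probes on the deposited scale, and its 232 spots showed how little of its error came from spotting. The mean over spots was 0.75 in tumour 663, 0.64 in tumour 670 and 0.40 in tumour 653, the 3 highest, against -1.36 in tumour 638, -1.06 in tumour 667 and -1.01 in tumour 643, the 3 lowest (standard error 0.35, n = 2 arrays each). The median tumour stood at -0.31. Means were above 0 in 8 tumours and below 0 in 13, and 18 of 21 tumours had the same sign on both arrays. The 2.11 log2 units between tumours 663 and 638 did not bring the whole set of tumours past the test (limma moderated F test, Benjamini-Hochberg adjusted p = 0.0643). Of all tested probes, 19.2% passed it, 1804 of 9407. Here the standard deviation of the tumour means was 0.557, and 21.2% of probes had a smaller one.

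Gapdh crossed the threshold once the level of the whole array was removed. After subtraction of the array median, tumour 663 stood at 1.48 and tumour 643 at -1.69, a range of 3.17 (standard error 0.38), and the adjusted p was 0.0017, with 18.2% of probes called. On that scale 63.9% of probes varied less than Gapdh. With the dye orientation as a covariate on the deposited scale the adjusted p was 9.6e-04, where 43.9% of probes passed. Whether Gapdh differed between tumours therefore depended on the scale and on the dye term.

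The repeated spots separate the error of spotting from the error of a hybridisation. Between 203 and 232 spots had a value on an array, and at least 229 on every array outside tumour 638. The standard deviation over spots ran from 0.0916 to 0.938 with a median of 0.187, and was below 0.3 on 35 of 42 arrays. Both arrays of tumour 638 were the widest, at 0.938 and 0.786, and no other array exceeded 0.425. The standard error of the array mean over its spots had a median of 0.0123, whereas the 2 arrays of a tumour differed by 0.0815 to 1.35, with a median of 0.483. That difference was over 2 spot standard errors in 21 of 21 tumours, at a median of 26.5 of them. Averaging hence brought little: the standard deviation between the arrays of a tumour was 0.451 for the median single spot and 0.447 for the mean over all spots. Taken one at a time, 113 of 232 spots differed between tumours on the deposited scale and 225 of 232 on the centred scale, in fits where 20.4% and 21.3% of all probes were called. The spots share RNA, dye and slide, so those counts are not 232 pieces of evidence.

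**Figure D1:**
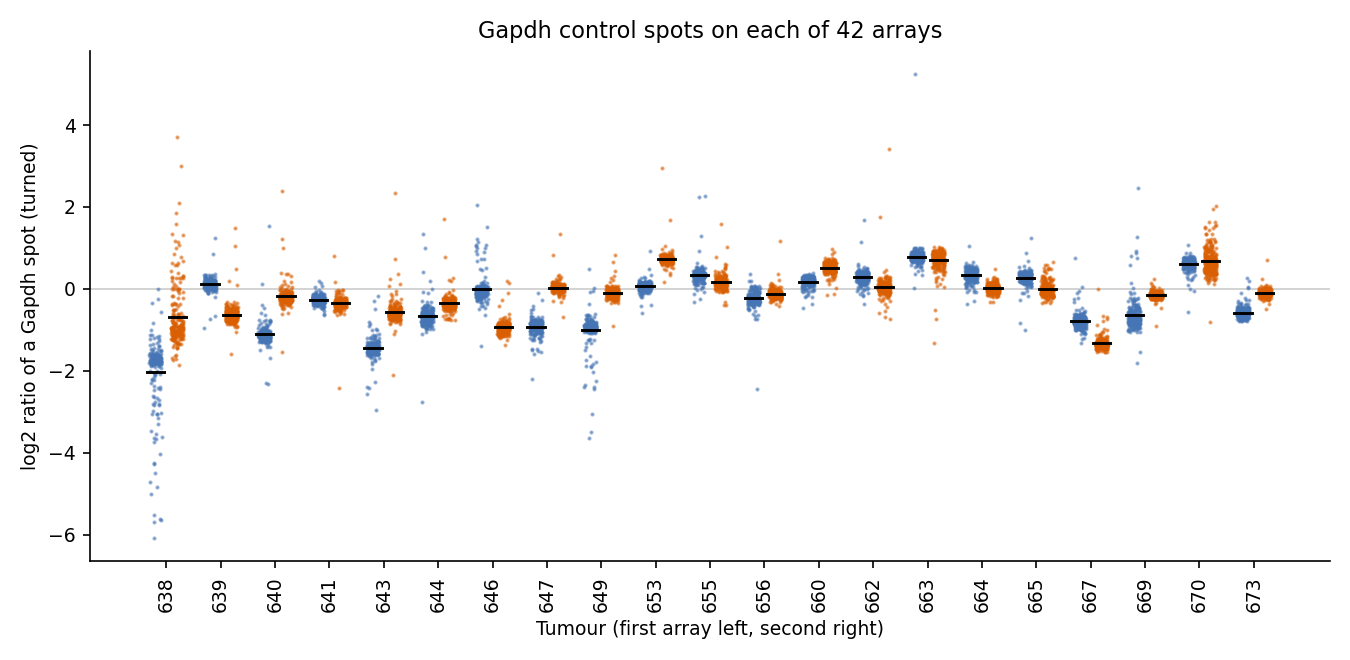
Log2 ratio (as deposited, turned) of each of 232 Gapdh control spots on the 42 arrays, with the 2 arrays of each tumour side by side and bars at the array mean. Spots of an array lie close together while the 2 arrays of a tumour often stand apart, and the arrays of tumour 638 are the widest, at standard deviations of 0.938 and 0.786.

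Ldha, the lactate-forming subunit, differed between tumours and was led by tumours at both ends. Its level was 1.62 in tumour 653 (arrays at 1.42 and 1.83), 1.07 in tumour 663 (0.975 and 1.17) and 0.99 in tumour 662 (0.815 and 1.17). At the low end it was -2.31 in tumour 656 (-3.42 and -1.21), -0.95 in tumour 673 (-1.01 and -0.883) and -0.92 in tumour 644 (-0.751 and -1.08). The median tumour stood at 0.17, with 13 means above 0 and 8 below. The range was 3.94 log2 units with a standard error of 0.34 for a tumour mean (n = 2 arrays each, moderated F test, adjusted p = 3.3e-04). Without tumour 656, whose own arrays lay far apart on this probe, the range was 2.57, with 1.62 in tumour 653 and -0.95 in tumour 673 (standard error 0.26), at an adjusted p of 0.00016 (20.7% of probes called). After centring, tumour 653 stood at 1.83 and tumour 656 at -2.29 (adjusted p = 0.0035).

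Bnip3, the mitophagy receptor, lay below the reference in every tumour on the deposited scale. Its widest gap cut the order of tumours into a higher and a lower stretch. The highest levels were -0.25 in tumour 663 (arrays at 0.035 and -0.534), -0.30 in tumour 653 (-0.682 and 0.092) and -0.49 in tumour 670 (-0.731 and -0.241). The next were tumours 655 at -0.67, 660 at -0.72, 662 at -0.80, 665 at -1.03 and 664 at -1.17. A gap of 0.843 then separated tumour 664 from tumour 644, at -2.02, and this was the widest in the order. Below it followed tumours 669 at -2.56, 639 at -2.70 and 647 at -2.75, and the lowest were tumours 641 at -3.55, 667 at -3.81 and 640 at -4.03. Both arrays were below 0 in 19 of 21 tumours. The range of 3.78 log2 units (standard error 0.45, n = 2 arrays each) passed the F test at an adjusted p of 7.6e-05, and 12.7% of probes had tumour means that varied as much or more. Centred on the array median, 2 tumour means were above 0 and the gap between tumours 665 and 644 was 1.05.

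**Figure D2:**
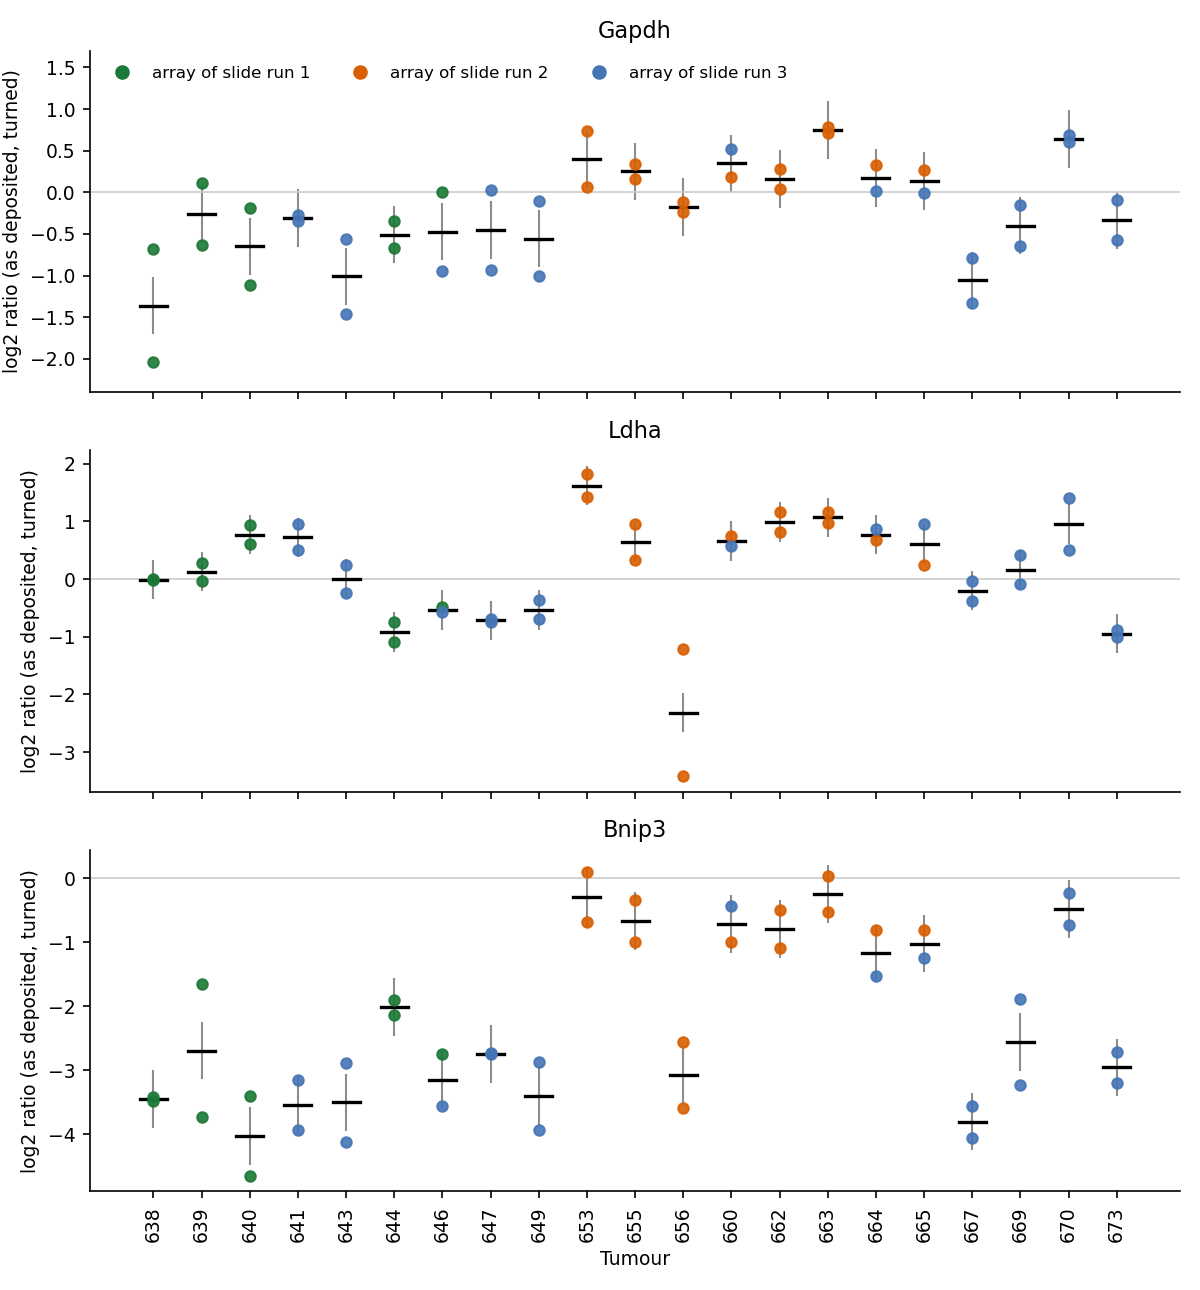
Log2 ratio to the reference RNA (as deposited, turned) of Gapdh, Ldha and Bnip3 in 21 tumours, with a point for each array coloured by slide run, a bar at the tumour mean and a line of 1 standard error. Tumours 653, 655, 660, 662, 663, 664, 665 and 670 hold the 8 highest means for Bnip3 and for Gapdh, and tumour 656 stands apart for Ldha at -2.31.

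The same 8 tumours, 653, 655, 660, 662, 663, 664, 665 and 670, were the highest for Bnip3 and for Gapdh, on both scales, and for Ldha on the centred scale. On the deposited scale, tumours 640 at 0.77 and 641 at 0.72 took the places of tumours 655 and 665 among the highest 8 for Ldha. No neighbours in the order of levels differed for any of the 3 genes (limma contrasts, 0 of 20 neighbouring pairs each on either scale), and 1 such pair, tumour 673 over tumour 656 for Ldha, was under 0.05 before adjustment (limma adjusted p = 0.123). Of all 210 tumour pairs, 63 differed for Bnip3 (30.0%), 32 for Ldha (15.2%) and 6 for Gapdh (2.86%) at an adjusted p below 0.05 and a log2 difference of at least 1, where 2.75% of all pairs of tumours and probes did. Gapdh thus stood at the background. With centred arrays the counts were 72 for Bnip3, 22 for Ldha and 22 for Gapdh beside 2.64% of all pairs, and with the dye as a covariate 104, 48 and 34 beside 7.64%. For Bnip3 all 63 pairs set a tumour of the 8 highest above a tumour of the other 13, out of 104 such pairs. Their differences were 2.23 to 3.78. The 8 were defined by these same levels, so that direction was fixed in advance and is no evidence of separate groups. Levels ran from -1.17 to -0.25 within the 8 and from -4.03 to -2.02 within the 13, spans narrower than 2.23. For Ldha, tumour 656 was the lower member in 17 pairs, and the other 15 did not involve it. Tumour 653 was the higher member in 7 of the 32, the pair with tumour 656 included. Refitted without tumour 656, a setting chosen after seeing the data, 46 of 190 pairs differed for Ldha (24.2%), 62 for Bnip3 and 6 for Gapdh, beside 3.28% of all pairs of tumours and probes. For Gapdh the 6 pairs set tumours 663, 670 or 660 above tumours 638, 643 or 667. The widest contrasts were 3.94 for Ldha in tumour 653 over tumour 656 (standard error 0.48, limma adjusted p = 3.9e-05) or, without tumour 656, 2.57 in tumour 653 over tumour 673 (0.36, limma adjusted p = 2.9e-04), 3.78 for Bnip3 in tumour 663 over tumour 640 (0.63, adjusted p = 0.00132) and 2.11 for Gapdh in tumour 663 over tumour 638 (0.49, adjusted p = 0.00798).

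The order of the tumours ran partly with the slide run, the 3 groups of 9, 13 and 20 arrays that running numbers in the titles form, which the labels do not call a batch. Slide run 1 held no array of the 8 highest Bnip3 tumours, and its 9 arrays ran from -4.65 to -1.66. In slide run 2, the 11 arrays of 7 of those tumours ran from -1.08 to 0.092, and both arrays of tumour 656 lay below them, at -2.57 and -3.59. Slide run 3 held 5 arrays of tumours 660, 664, 665 and 670, from -1.54 to -0.241, and 15 arrays of 8 other tumours, from -4.12 to -1.89, with no overlap. Over all 42 arrays the lowest of the 8 highest tumours, -1.54 in tumour 664, lay just above the highest of the others, -1.66 in tumour 639. Arrays of both stretches of Bnip3 thus lay in slide runs 2 and 3, with tumour 656 alone in the lower stretch of slide run 2. The stretches were cut by Bnip3 levels of these same arrays, so the lack of overlap is partly built in. The part of the slide run in the split was not tested. With the slide run as a block the adjusted p was 0.00917 for Bnip3, 0.00247 for Ldha and 0.395 for Gapdh, in a fit where 7.55% of all probes passed. Within slide runs 1, 2 and 3, among the 4, 5 and 8 tumours with both arrays there, no gene of the 3 passed: the lowest adjusted p was 0.163 for Bnip3 and 0.280 for Ldha, both in slide run 3 (limma, unadjusted p = 0.00741 and 0.0235). In those fits 0, 0 and 1.06% of all probes passed. An array in each of 2 slide runs was found for 4 tumours.

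Subtracting Gapdh, as a loading control would be used, narrowed the difference in Bnip3 but left it past the test. Bnip3 minus Gapdh was -0.69 in tumour 653 and -3.38 in tumour 640, a range of 2.69 (moderated F test, adjusted p = 1.2e-04). Without subtraction the range was 3.78. The standard deviation of the tumour means fell from 1.32 to 0.864. The widest gap shrank to 0.585, between tumours 644 and 638, with 9 tumours above it and 12 below, so that tumour 644 moved to the upper side. Ldha minus Gapdh was 1.42 in tumour 640 and -2.14 in tumour 656 (adjusted p = 0.00275). Without tumour 656 its lowest was -0.61, in tumour 673 (adjusted p = 0.0229). In these fits 70.2% of all probes passed, or 72.1% without tumour 656, and the cause was not tested.

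Gapdh and Ldha were correlated over all 21 tumours. Over the 21 tumour means of centred ratios, Pearson's r was 0.690 and Spearman's rho 0.751 (two-sided permutation test, p = 5.1e-04 and 1.8e-04, adjusted 0.00357 and 0.00126 over 7 relations). Without the 2 tumours farthest from the median of Gapdh, r was 0.633, and with the 2 genes taken from different arrays of a tumour it was 0.503 and 0.455. On the deposited scale r was 0.489, and without tumour 656 it was 0.813 with centred ratios. Over all 21 tumours r of Bnip3 was 0.927 with Gapdh and 0.738 with Ldha, given without a test. The tumours were then cut at the widest Bnip3 gap, and relations are given within each stretch. The cut was made on Bnip3 itself, and tumours 664 and 644 on either side of it did not differ (limma contrast, adjusted p = 0.480). The p-values within the stretches are therefore a description only. Genes read on the same arrays also share the error of those arrays and the subtracted median, and the part of both in r was not tested. Gapdh and Bnip3 had r = 0.914 over the 8 tumours above the gap (rho 0.738, exact permutation test of r, p = 0.00109, adjusted 0.00382) and 0.712 over the 13 below it (rho 0.703, permutation test of r, p = 0.0071, adjusted 0.0166). By rho the adjusted permutation p was 0.0642 above the gap, which did not pass, and 0.0335 below it. Taken from different arrays, the same relation was 0.188 and 0.238 above the gap, and 0.0767 and 0.471 below it. Ldha and Bnip3 had r = 0.834 above the gap (rho 0.738, exact permutation test of r, p = 0.0108, adjusted 0.0188), with 0.0943 and -0.133 from different arrays, and -0.262 below it (permutation p = 0.395). By rho the adjusted permutation p above the gap was 0.0642, which did not pass. Gapdh and Ldha had r = 0.709 above it (exact permutation p = 0.0414, adjusted 0.0580), with -0.422 and -0.149 from different arrays, and -0.108 below it (permutation p = 0.731), so their relation over all tumours did not pass after adjustment within either stretch. Within slide run 3, r was 0.630 for Gapdh and Ldha over 8 tumours. Slide runs 1 and 2 held 4 and 5 tumours, too few for a value.

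**Figure D3:**
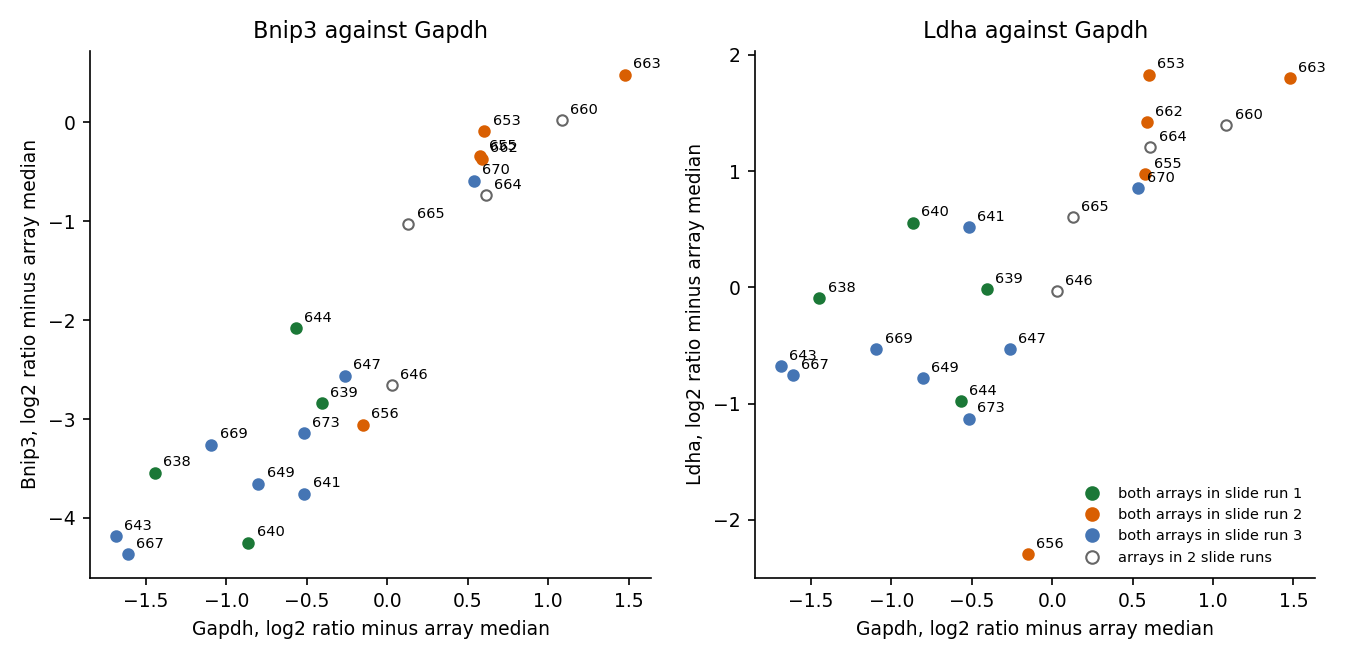
Bnip3 (left) and Ldha (right) against Gapdh as tumour means of log2 ratios minus the array median, a point for each of 21 tumours, filled by slide run or open where the 2 arrays lie in 2 runs. Bnip3 leaves a gap of 1.05 between tumours 665 and 644, and tumour 656 stands below all others for Ldha.

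The genes most like each of the 3 were found by Pearson's r over the centred means of up to 21 tumours among 7628 other genes, as a description of points that share arrays and array medians. For Ldha they were Pmm1 (0.957), a phosphomannomutase, Bckdhb (0.942), a subunit of the branched-chain keto acid dehydrogenase, Lonp1 (0.935), a mitochondrial protease, Cript (0.925), and Pgd (0.925), an enzyme of the pentose phosphate pathway. For Bnip3 they were 1700010G06Rik (0.948), Rab22a (0.945), a small GTPase of endosomes, Vegfa (0.939), the angiogenic growth factor, Pgk1 (0.934), the glycolytic phosphoglycerate kinase, and 4921517D16Rik (0.934). Without tumour 656 r was 0.897 to 0.964 for these 5 genes with Ldha and 0.935 to 0.964 for these 5 with Bnip3. For the latter 5, r above the Bnip3 gap was 0.511 (Vegfa) to 0.896 (4921517D16Rik). Below the gap it was 0.424 (Pgk1) to 0.776 (Vegfa). Vegfa ran from 0.90 in tumour 663 to -1.53 in tumour 656 on the centred scale and did not pass the test (adjusted p = 0.232 as deposited, 0.322 without tumour 656 and 0.0926 centred). For Gapdh they were Tdg (0.998), Cfap70 (0.997), Crx (0.996), Slc19a2 (0.996) and 5033406O09Rik (0.996), each above 0.99 and none of them a glycolytic gene.

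Other genes of the pathways were counted beside all genes. Of 56 genes in 4 lists, 48 had a probe, 39 were measured in enough tumours, and 15 of those passed the test as deposited (38.5%), Ldha and Bnip3 among them, where 18.9% of 7629 genes did. Their median range was 3.26 log2 units and that of all genes 3.08. With centred arrays 22 of 39 passed, beside 19.3% of all genes, and with the dye as a covariate 26, beside 45.1%. Both together gave 24, beside 26.5%, and the slide run as a block 11, beside 7.68%. Within slide runs 1, 2 and 3 no list gene passed (limma, 0 of 40, 0 of 40 and 0 of 41, of which 12, 10 and 11 were under 0.05 before adjustment), and 0, 0 and 1.21% of all genes did, with 10.6%, 4.80% and 13.7% of all genes under 0.05 before adjustment. The lists and members were chosen with results of these data known, so these counts describe the lists. Tumour 656 held the lowest level for 11 of the 39 genes (28.2%, and 12.3% of all 7629), and tumours 653 and 669 the highest for 6 each (15.4%, and 0.839% of all genes for tumour 653 and 22.4% for tumour 669). Without tumour 656, 15 of 39 passed again, beside 19.9% of all genes.

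Among the glycolytic enzymes 5 of 12 tested passed. Pgk1 was 0.00 in tumour 653 and -1.79 in tumour 656 (standard error 0.27, adjusted p = 0.00139), so on the deposited scale no tumour mean stood more than 0.0015 above the reference, while on the centred scale tumour 663 was at 0.51. Without tumour 656 its lowest was -1.77, in tumour 638 (adjusted p = 0.00153). Ldhb, the B subunit that favours pyruvate, was 2.36 in tumour 656, where Ldha was lowest, and -2.21 in tumour 647, where Ldha was also low at -0.72 (adjusted p = 0.0484). Without tumour 656 it did not pass (adjusted p = 0.114). Eno3, the muscle enolase, was 1.92 in tumour 673 and -4.65 in tumour 663 (adjusted p = 0.0207), and Pfkm, the muscle phosphofructokinase, 0.85 in tumour 669 and -3.68 in tumour 664 (adjusted p = 0.0401). On the centred scale the median of 4 measured of 7 skeletal muscle markers was highest in tumour 673, at 5.99, and lowest in tumour 663, at -2.71. These tumours were at the ends of Eno3 on the deposited scale. With centred arrays Eno3 was highest in tumour 646, at 1.81, where the muscle median was 3.75, and lowest in tumour 663, at -3.92. Tumour 663 was lowest for 18.2% of all genes as deposited. The muscle median was 2.69 and 2.64 in tumours 669 and 664, at the ends of Pfkm on both scales. Of the 4, Acta1 passed the test as deposited (adjusted p = 8.4e-04), and Ckm, Mylpf and Pgam2 did not (0.235, 0.102 and 0.439). The part of muscle in these results was not tested. Hk1, Hk2 and Pfkl, the enzymes of the early committed steps, did not pass (adjusted p = 0.332, 0.716 and 0.179), though Pfkl did with centred arrays (0.0309) and with the dye as a covariate (0.0200). Ldha ran over 3.94 units and Gapdh over 2.11 in the same fit, with adjusted p-values of 3.6e-04 and 0.0701.

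Of the 5 tested genes for transport and pyruvate control, Slc16a1, which carries lactate and pyruvate across the plasma membrane, was the one that passed, at 1.35 in tumour 649 and -2.23 in tumour 656 (adjusted p = 2.2e-04), or -1.88 in tumour 664 without tumour 656 (adjusted p = 4.4e-04). Slc16a3, the lactate exporter of glycolytic cells, was 0.77 in tumour 653 and -2.87 in tumour 638 (adjusted p = 0.108, but 0.00244 with centred arrays and 0.0165 with the dye as a covariate), Pfkfb3, which makes the activator of phosphofructokinase, had an adjusted p of 0.533, and Pdk2, an inhibitory kinase of pyruvate dehydrogenase, one of 0.353 (2.7e-04 with the dye as a covariate). Of 7 tested regulators of the hypoxia response, Hif1a, the oxygen-labile subunit, was 0.62 in tumour 649 and -2.14 in tumour 641 (adjusted p = 7.7e-04), and Egln3, a prolyl hydroxylase that marks it for decay, 0.97 in tumour 639 and -2.91 in tumour 643 (adjusted p = 0.0414). Arnt, Vhl and Egln1 did not pass (adjusted p = 0.593, 0.989 and 0.560). The transcripts say nothing on the amount of the protein, which oxygen controls.

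Of 15 tested hypoxia-induced genes, 7 passed. Ddit4, an inhibitor of mTORC1 signalling, was 1.78 in tumour 663 and -1.45 in tumour 667 (standard error 0.29, adjusted p = 5.6e-06). Ero1a, which oxidises proteins of the endoplasmic reticulum, was -0.04 in tumour 655 and -3.97 in tumour 656 (adjusted p = 3.2e-05), and Ndrg1 -0.48 in tumour 670 and -3.67 in tumour 656 (adjusted p = 2.4e-04). Lox, which crosslinks collagen, was -0.41 in tumour 646 and -7.37 in tumour 656, the widest range among the list genes that passed (adjusted p = 7.8e-04). Without tumour 656 these 3 still passed, with lowest levels of -3.33 for Ero1a and -3.03 for Ndrg1, both in tumour 673, and -6.19 for Lox in tumour 660 (adjusted p = 4.4e-06, 5.0e-04 and 0.00136). Plod2, which hydroxylates collagen lysines, was 0.69 in tumour 649 and -4.86 in tumour 640 (adjusted p = 0.00255). Tumours 646 and 649, highest for Lox and Plod2, were among the 5 tumours whose median mesenchymal marker lay above 0, and the part of those cells in the result was not tested. Bnip3l, the relative of Bnip3, Vegfa, and P4ha2 did not pass (adjusted p = 0.381, 0.232 and 0.110), and P4ha2 passed once arrays were centred (adjusted p = 0.00957).

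**Figure D4:**
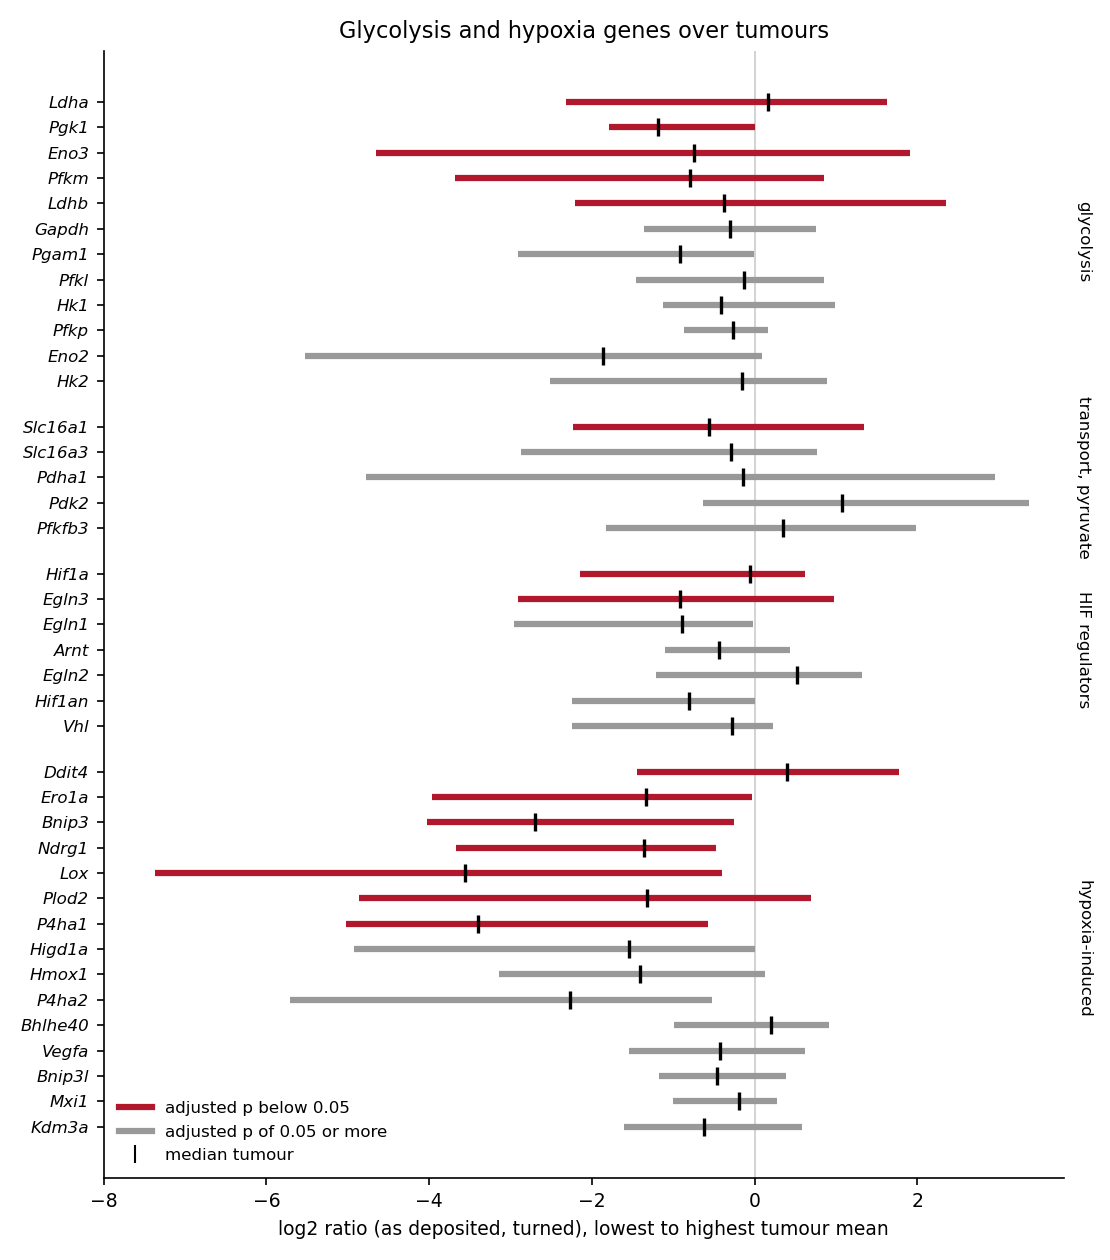
Lowest to highest tumour mean of the log2 ratio (as deposited, turned) for 39 tested genes of glycolysis, transport, regulators of hypoxia-inducible factors and hypoxia-induced genes, red where the adjusted p is below 0.05, with a tick at the median tumour. In all, 15 bars are red, and Lox has the longest of them, from -0.41 to -7.37.

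Markers of epithelial and other cells were checked on the centred scale. Krt8, an epithelial keratin, was at least 0.77 in every tumour. Other markers of the same list fell below 0 in their lowest tumour, Krt18 to -2.96, Epcam to -2.63 and Spint2 to -3.35. The median of 5 measured epithelial markers ran from 2.71 in tumour 667 to -2.39 in tumour 649, and that of 7 mesenchymal markers from 2.28 in tumour 646 to -4.15 in tumour 667. Tumours 644, 646, 647, 649 and 673 had a mesenchymal median of 0.70 to 2.28 and an epithelial median of -2.39 to -0.20. These 5 and tumour 656 held the 6 lowest Ldha levels of the deposited scale, -0.95 to -0.53 for the 5. On the centred scale tumours 646 at -0.03 and 647 at -0.53 were not among the 6 lowest. Tumours 667 at -0.755 and 643 at -0.675 were, with epithelial medians of 2.71 and 2.13. Bnip3 lay between -3.41 and -2.02 in the 5, outside the 8 highest, but tumours 640 and 667, with epithelial medians of 1.72 and 2.71, were lower still. The 6 measured macrophage markers had a median of 2.13 in tumour 646 and -2.62 in tumour 663. Of the endothelial, adipocyte and erythroid lists 1 of 5, 2 of 4 and 1 of 3 were measured. The part of these other cells in the differences of Gapdh, Ldha and Bnip3 was not tested.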

How the data were processed

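Two-colour log2 ratios from 42 arrays of 21 tumours were analysed as the authors deposited them. The log2 scale was read from the values. Any earlier correction or normalization, and each array's dye, were not given in the sources used here. In the table the highest value, 16.61 (log2 of 100000), recurred in 2.14% of 726515 values and was set to missing, and 24.1% of cells were blank. Arrays were turned by the first eigenvector of the correlations between the array differences of each tumour, with the sign set on Myc. The 232 Gapdh spots were averaged to 1 row. Probes with both arrays of at least 15 tumours, 9407 of them, were fitted with limma 3.58.1 in R 4.3.3, with 1 coefficient for each of 21 tumours, a moderated F test, pairwise contrasts and Benjamini-Hochberg adjustment over all probes, or over 7629 genes after averaging the probes of a gene. The threshold was 0.05, and 1 log2 unit for pairs. Of the probes, 16874 had 1 symbol, 134 several and 5792 none, and 16196 matched a current entry of the RefSeq gene table. Correlations used 100000 permutations, or exact enumeration under 10 tumours (SciPy 1.17.1). The fit was tested on simulated data. Alternatives were centring, quantile normalisation, the dye or slide run as a term, the top value kept, other filters and summaries of spots, and arrays or tumours left out. Named genes were the 3 genes, the 5 most correlated with each, and from each list up to 6 that passed and 3 that did not. The genes and lists were chosen with earlier results of these data known.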

Additional observations from a re-analysis of the deposited data

How the results depend on the processing

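Ldha and Bnip3 kept an adjusted p below 0.05 under the 13 alternatives that used all slide runs (Ldha 4.6e-05 to 0.0229, Bnip3 1.8e-07 to 0.0092) and lost it within single slide runs, a setting chosen after seeing the data. There the adjusted p was 0.495, 0.637 and 0.280 for Ldha, 0.662, 0.643 and 0.163 for Bnip3, and 0 genes of the lists passed in each, although 12 of 40, 10 of 40 and 11 of 41 had an unadjusted limma p under 0.05 (10.6%, 4.80% and 13.7% of all genes). These fits hold 4, 5 and 8 tumours. Gapdh, at 0.0643, passed with centred arrays (0.0017), quantile normalisation (0.0032), the dye as a covariate (9.6e-04), the dye covariate on centred arrays (0.0014, chosen after seeing the data), probes measured in all 21 tumours (0.0206) and the median over spots (0.0350). It stayed above the threshold in the other 10, for example at 0.0508 with the 189 complete spots, 0.108 with the top value kept, 0.127 with a minimum of 10 tumours and 0.0874 without tumour 638. Leaving out each array in turn gave 0.0319 to 0.0985 for Gapdh, which passed without an array of tumour 638 (0.0319), 647 (0.0456) or 643 (0.0480), 4.9e-06 to 8.7e-04 for Ldha, 1.8e-05 to 1.9e-04 for Bnip3, and 12 to 16 list genes, against 15. The list count was 26 with the dye covariate (45.1% of all genes) and 24 with centring added (26.5%), and 11 with the slide run as a block (7.68%). Called tumour pairs numbered 22 (centred) and 34 (dye) for Gapdh and 104 (dye) for Bnip3. The correlation of Gapdh with Ldha turned to -0.11 among the tumours below the Bnip3 gap, and 0.630 within slide run 3 no longer passed. The causes were not tested. No paired analysis was possible by array number, because the tumours are single groups and their array numbers pair nothing. The dye orientation, as read from the turning, does form a block, with 21 arrays in each orientation and 1 of every tumour. The main fit left it out. With it as a covariate, the estimated dye effect was 0.50 for Gapdh, -0.16 for Ldha and 0.67 for Bnip3. In the moderated F test 43.9% of probes then passed, against 19.2% in the main fit. The result for Gapdh at 0.0643 is therefore that of a fit without the dye. Depth is limited to 2 arrays a tumour, and the overall sign is likely, not settled.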

Other observations

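Some probes for other genes had nearly the values of the Gapdh spots. Of 8848 other probes measured on at least 36 arrays, 29 lay within a root mean square difference of 0.2 log2 units of the median Gapdh spot over the arrays, as did 141 of the 232 Gapdh spots, while the median of the other probes was 1.34. Among the 29, 21 had a gene symbol, such as Zhx3, Efl1, Fbxo7 and Slc19a2, and 8 had none, with r over arrays of 0.949 to 0.982. They were named after their values were seen. Cfap70, Slc19a2 and 5033406O09Rik, listed among the genes most like Gapdh, and 4921517D16Rik, listed among those most like Bnip3, were in this set. Ldha (0.945 from the median Gapdh spot) and Bnip3 (2.17) were not. The cause was not tested, and no probe sequence was used here.

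One Gapdh spot, numbered 5800 on the array, lies outside the numbers of the other control spots. Its tumour means were 1.03 in tumour 670 and 0.83 in tumour 663, against -1.75 in tumour 638, -1.43 in tumour 667 and -1.26 in tumour 656, where the mean over all spots was -0.18. In 2 spots the correlation with the median spot over the arrays was below 0.5.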
